A study of Rattus norvegicus with 15 samples.

Results

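The 36 genes described here are a list of cell cycle and proliferation genes, chosen by name and not by any value of these libraries. All 36 were found as rows with an identifier, out of 34357 such rows in the deposited table. Total RNA of 2 tissues, mesentery artery and kidney cortex, was sequenced from the Dahl salt-sensitive (SS) rat, a strain bred for hypertension on a high-salt diet. In the deletion groups (KO in the labels) 30.4 kb of noncoding DNA had been removed from chromosome 2 (rn7 chr2:60825801-60856216), the stretch that corresponds to the human rs1173771 haplotype block, and the wild-type groups (WT) kept it on the same SS background. Artery gave 8 libraries, 4 of each genotype, and kidney gave 7, of which 3 were wild-type and 4 deletion, all titled male. Age, diet and treatment of the rats are not given in the labels. Whether the libraries of a group came from separate rats is not stated either, so errors and p-values measure the spread between these libraries, which may be technical. The study asked which genes the loss of the interval influences, and here the question is put to the machinery of cell division.

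A dividing cell licenses its replication origins in G1, copies its DNA in S phase, and separates the copies in mitosis. Origin licensing loads a ring of 6 MCM proteins on the DNA, which then unwinds it, while ribonucleotide reductase and thymidylate synthase make the building blocks and PCNA clamps the polymerases to the template. Cyclins A and B with CDK1, and the Polo and Aurora kinases, drive entry into mitosis. The spindle checkpoint holds the anaphase-promoting complex back until each chromosome is attached. In resting tissue the E2F and DREAM repressors keep most of these genes low, and replication genes and mitotic genes are switched on in turn through different promoter elements. Artery wall and kidney cortex are mostly resting tissues in grown animals, where transcripts of this kind would come from a minority of cells. The age of these rats is not given, and the cells of origin were not measured here. In bulk tissue a lower number of cycling cells and less of these RNAs per cell cannot be told apart.

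The promoters show the elements through which these genes are known to be switched on, and they divide the list by role. RefSeq promoters on GRCr8, each with 250 bases before and 50 after the start, were found for 29 of the 36 genes. The letters searched, on both strands, were CCAAT, the site of the factor NF-Y; TTTGAA and TTTAAA, the cell cycle homology region bound by the DREAM and MuvB complexes; and TTCCCGC and TTGGCGC, forms of the E2F site. The promoters printed are those of Ccnb1 and Cdk1, a cyclin and its kinase (chr2:33655176-33655475, minus strand, and chr20:19265043-19265342, plus strand), and of Mcm2 and Pcna, replication genes (chr4:122918045-122918344 and chr3:139955771-139956070, both minus strand). That of Kif11 (chr1:244536617-244536916, plus strand) is shown because this gene had the largest difference between tissues, and it was chosen after its values were seen. Capitals mark the searched letters on either strand.
Ccnb1: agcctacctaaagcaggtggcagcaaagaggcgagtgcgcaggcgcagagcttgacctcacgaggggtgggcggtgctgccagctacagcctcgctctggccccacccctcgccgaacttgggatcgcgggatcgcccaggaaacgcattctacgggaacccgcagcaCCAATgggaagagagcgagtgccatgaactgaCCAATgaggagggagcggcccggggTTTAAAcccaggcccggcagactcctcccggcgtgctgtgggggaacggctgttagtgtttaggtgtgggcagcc
Cdk1: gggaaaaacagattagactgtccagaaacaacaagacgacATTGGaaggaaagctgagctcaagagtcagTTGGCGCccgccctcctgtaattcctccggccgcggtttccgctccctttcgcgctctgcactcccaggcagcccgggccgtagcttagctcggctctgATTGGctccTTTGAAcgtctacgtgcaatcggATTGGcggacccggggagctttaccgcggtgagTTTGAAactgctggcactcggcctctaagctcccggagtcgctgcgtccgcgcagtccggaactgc
Mcm2: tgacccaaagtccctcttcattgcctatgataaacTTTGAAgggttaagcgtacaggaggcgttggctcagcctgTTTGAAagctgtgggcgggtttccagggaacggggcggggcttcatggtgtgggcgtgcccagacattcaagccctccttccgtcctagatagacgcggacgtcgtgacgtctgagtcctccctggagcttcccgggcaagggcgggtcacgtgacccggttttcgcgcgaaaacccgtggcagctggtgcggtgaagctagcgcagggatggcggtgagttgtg
Pcna: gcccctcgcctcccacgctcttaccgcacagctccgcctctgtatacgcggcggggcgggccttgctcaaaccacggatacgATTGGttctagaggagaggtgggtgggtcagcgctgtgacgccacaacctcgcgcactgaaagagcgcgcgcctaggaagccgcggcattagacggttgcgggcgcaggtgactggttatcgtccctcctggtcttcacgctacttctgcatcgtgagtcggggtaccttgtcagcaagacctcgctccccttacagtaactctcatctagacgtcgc
Kif11: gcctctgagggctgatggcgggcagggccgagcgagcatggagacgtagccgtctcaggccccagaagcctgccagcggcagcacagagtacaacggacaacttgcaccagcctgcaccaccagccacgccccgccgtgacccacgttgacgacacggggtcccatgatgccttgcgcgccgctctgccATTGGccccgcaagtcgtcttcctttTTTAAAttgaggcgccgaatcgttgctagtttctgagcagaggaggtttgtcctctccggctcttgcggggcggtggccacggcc

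Of the 29 promoters, 22 (75.9%) held CCAAT, against 37.7% of the 27457 promoters in the table. TTTGAA or TTTAAA stood in 20 of the 21 promoters outside the replication group, with Melk as the exception, and in 1 of the 8 replication promoters, that of Mcm2. Of all promoters, 27.9% held either. The 2 E2F forms went the other way: 6 of 8 replication promoters (75%) held TTCCCGC or TTGGCGC, against 2 of the other 21 (9.52%), Cdk1 and Mki67, and 6.67% of all promoters. Mcm2 and Pcna were the 2 replication genes with neither of the searched forms in this window. Other forms of the E2F site were not searched, so these 2 promoters may still hold one. In Mcm7 and Mki67 matches of different letters overlap. These matches are descriptions of the sequence, and binding was not measured in these libraries.

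The libraries carried the markers of their tissues. The summed level of 8 smooth muscle markers ran from 1416 to 2890 FPKM in arteries and from 37.3 to 77.3 in kidneys. That of 8 proximal tubule markers ran from 80.9 to 124 in arteries and from 2050 to 3275 in kidneys. In arteries most of this sum was Aqp1, at 78.9 to 120 FPKM, while Slc34a1 was at 1.06 or below. Arteries also held adipocyte markers, with 8 of them summing to 1756 to 3353 FPKM. In kidneys that sum was 1145 to 1877, most of it Pck1. Adipoq was at 530 to 1053 in arteries against 2.23 to 4.07 in kidneys. The part of fat in the differences between tissues was not tested. FPKM is the number of fragments scaled by gene length and library size, so levels can be compared between genes. Read depth is unknown, and the FPKM of a library summed to between 285679 and 459847. The library labelled kidney wild-type 3 stood apart: Xist, the RNA that coats a silenced X chromosome, was at 81.1 FPKM in it and at 1.30 or below in the other 14, and the Y-linked genes Eif2s3y and Kdm5d were listed at 0 in it alone, which goes against its title. The main kidney results are therefore given with and without it. The arteries wild-type 3 and deletion 2 held B cell marker sums of 115 and 87.4 FPKM, against 4.88 to 17.9 in the other 6 arteries, with all 8 B cell markers above 0 in every artery; the range was 5.70 to 115 in wild-type and 4.88 to 87.4 in deletion arteries. Haemoglobin transcripts made up 33.0% of the FPKM in artery wild-type 4. Artery wild-type 1 held the highest artery sum of 8 intestinal epithelium markers, 39.1 FPKM against 4.05 to 9.86 in the others. Fabp2 was at 14.7 FPKM in it, while Lgr5, at 2.90, lay within the range of the other arteries. The part of such cells in the levels of the cell cycle genes was not tested.

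By median, the replication genes Pcna, Tyms, Rrm1 and Mcm7 were the most abundant of the list in artery, and in kidney Pcna was followed by the spindle motor Kif11. Pcna, the polymerase clamp, ran from 14.0 to 26.6 FPKM in the 8 arteries and from 29.4 to 38.6 in the 7 kidneys. Tyms, thymidylate synthase, ran from 10.9 to 16.8 in artery and from 15.3 to 19.5 in kidney, and Rrm1, the large subunit of ribonucleotide reductase, from 9.57 to 13.3 and from 13.9 to 17. Rrm2, the small subunit that cells make in S phase, was lower than Rrm1 in every library, with 0.934 to 3.21 FPKM in artery and 1.81 to 6.21 in kidney. The MCM proteins form a ring with 1 copy of each, yet their RNA levels differed: in kidney the median was 8.17 FPKM for Mcm7 and 1.89 for Mcm3. The order of the MCM genes was not the same in the tissues, with Mcm4 at a median of 6.09 FPKM in artery, below only Mcm7 at 8.71, while in kidney Mcm2 took that place at 4.95. Mcm7 is the host gene of the microRNAs Mir25, Mir93 and Mir106b.

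**Figure D1:**
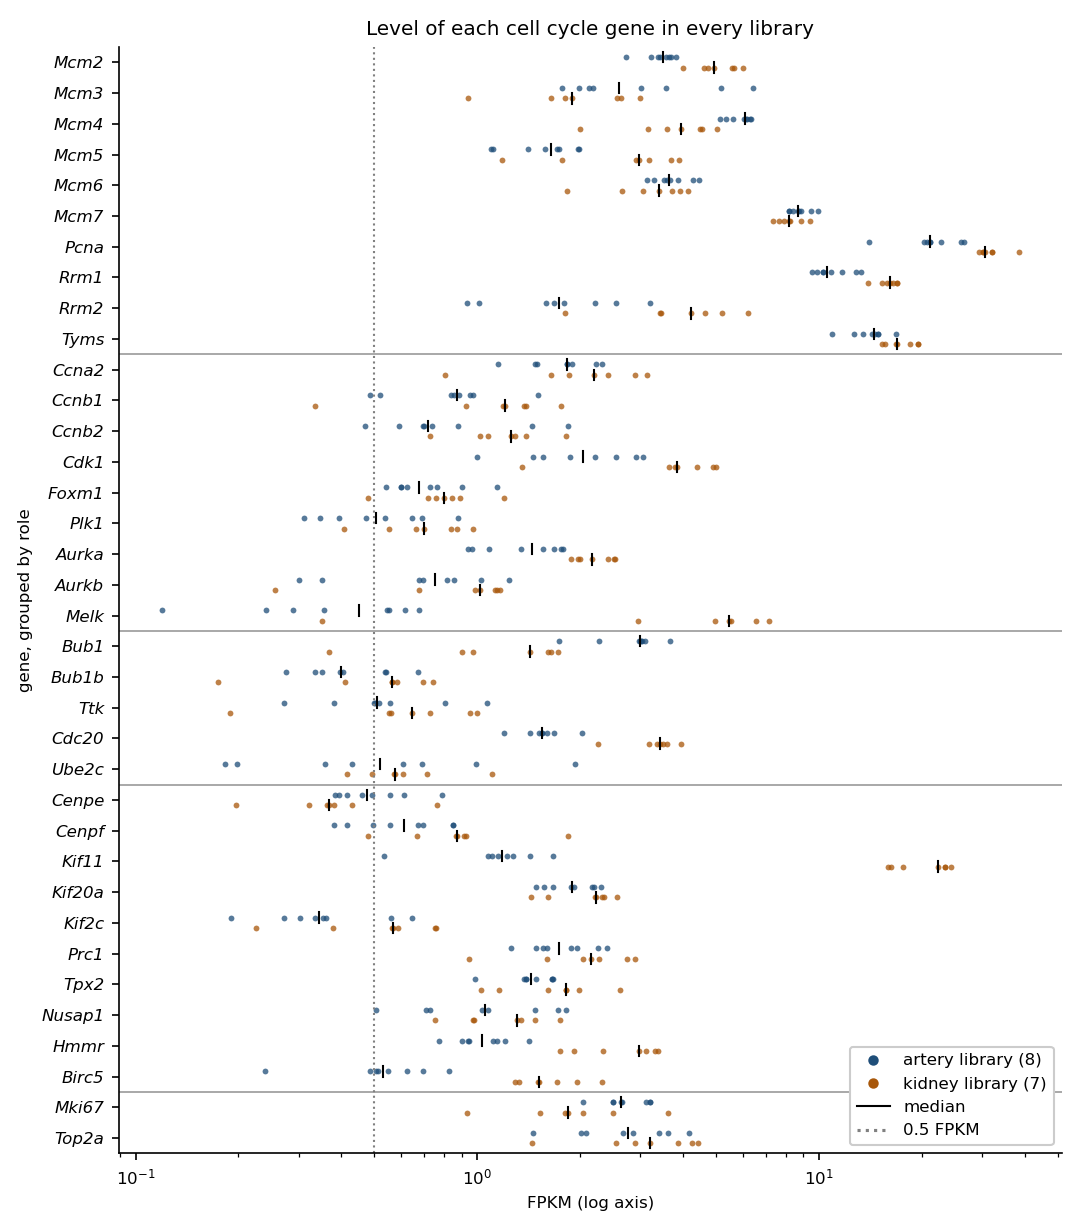
FPKM of each of the 36 genes in every library, on a log axis, with arteries in blue, kidneys in brown and a black tick at the median of each tissue; the dotted line is at 0.5 FPKM. Pcna, Tyms and Rrm1 stand at the right in both tissues, most mitotic genes lie below 4 FPKM, and Kif11 and Melk are the genes whose tissues lie furthest apart.

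A few mitotic genes fell below the level at which genes were tested. A gene was tested in a tissue where its mean was at least 0.5 FPKM, which 33 of the 36 passed in artery (not Melk, Bub1b and Kif2c) and 35 in kidney (not Cenpe). Over both tissues 33 passed (not Bub1b, Cenpe and Kif2c). Their own values were low throughout: Bub1b, a checkpoint kinase, ran from 0.276 to 0.672 FPKM in artery and from 0.175 to 0.741 in kidney, and Kif2c, which takes microtubules apart at kinetochores, from 0.190 to 0.644 and from 0.225 to 0.758. Cenpe, a kinetochore motor, ran from 0.383 to 0.791 in artery and from 0.197 to 0.763 in kidney. Whether counting used strand is not given in these sources, so reads of overlapping genes on opposite strands may not be told apart. Kif20a shares 1890 bases with Cdc23 and Tyms 1389 with Enosf1 on the opposite strand. The table also names 20 pseudogene copies of 13 of these genes, 4 of them of Ube2c and 3 of Pcna. Kif11 and Birc5 are also among the 13. How fragments were shared with such copies is not known, which makes the levels of these genes uncertain.

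More of these genes were higher in kidney cortex than in artery, 13 against 3 of 33, led by the spindle motor Kif11. Artery was compared with kidney over all 15 libraries with limma on log2(FPKM + 0.5), and a gene was called at a Benjamini-Hochberg adjusted p under 0.05 over all genes tested. Of 33 genes, 3 were called higher in artery and 13 lower, while 17 did not pass; the 16 called were also those with an unadjusted p under 0.05, against 78.5% of all genes. Estimates were above 0 for 6 of 33, against 54.4% of all genes. Over all 16856 genes tested 77% were called, 41.8% higher and 35.2% lower in artery, so the share called here (16 of 33) was below that of all genes, while more of the calls were on the kidney side. The median log2 difference of the 33 genes was -0.23, beside 0.11 over all genes. With median-of-ratios scaling the median of all genes was -0.028, a shift of over 0.1, and the split was 2 higher and 16 lower; with quantile normalization it was 2 and 23, and with array weights, whose estimation did not converge, 3 and 22. It was 2 and 17 without kidney wild-type 3. Groups did not overlap for 2 of the genes called higher and 8 of those called lower, against 50% of all genes.

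Kif11, the motor that pushes the spindle poles apart (rn7 chr1:235124371-235176760, plus strand), had the largest difference. Its FPKM values in artery were 1.10, 1.15, 1.27 and 1.07 for the wild-type group and 1.42, 1.22, 1.67 and 0.533 for the deletion group. In kidney they were 17.7, 23.4 and 16.3 for wild-type and 22.3, 15.9, 23.4 and 24.3 for deletion. Every kidney lay far above every artery. The log2 difference of artery from kidney was -3.64 (SE 0.15, limma adjusted p = 3.67e-12), which is 12.4-fold on the scale of FPKM + 0.5 (95% confidence interval 9.95 to 15.5). No other spindle gene showed a difference of this size: Birc5, the survivin subunit of the chromosomal passenger complex, was next with -1.03 (SE 0.14, limma adjusted p = 8.25e-06), and Tpx2, which activates Aurora A on the spindle, stood at -0.13 and did not pass.

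Melk, a kinase of the late cell cycle (rn7 chr5:58540393-58600562, plus strand), came next. It ran from 0.119 to 0.677 FPKM in the 8 arteries with a median of 0.451. In the kidneys it stood at 7.14, 4.97 and 0.350 FPKM (wild-type) and 5.53, 2.96, 6.56 and 5.44 (deletion). Without kidney wild-type 3 the tissues did not overlap, and that library lay within the artery range. The log2 difference of artery from kidney was -2.23 (SE 0.37, limma adjusted p = 4.87e-05), and -2.71 without kidney wild-type 3. With a mean of 0.424 FPKM in artery and 4.71 in kidney, Melk passed the filter over both tissues only through the kidneys. Other genes lower in artery were Hmmr, a microtubule-binding hyaluronan receptor (-0.97), Rrm2 (-0.94), Cdc20, the activator of the anaphase-promoting complex (-0.86), Cdk1 (-0.71), Mcm5 (-0.61), Pcna (-0.58), Aurka (-0.54), Rrm1 (-0.51), Mcm2 (-0.49) and Tyms (-0.30).

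The genes called higher in artery were Bub1, Mcm4 and Mki67. Bub1, a kinase of the spindle checkpoint, ran from 1.73 to 3.66 FPKM in artery and from 0.369 to 1.72 in kidney, so the tissues did not overlap. Its log2 difference was 1.0 (SE 0.20, limma adjusted p = 0.000352). Mcm4 ran from 5.13 to 6.31 FPKM in artery and from 2.0 to 5.02 in kidney, again without overlap, with a difference of 0.61 (SE 0.14, limma adjusted p = 0.000928). Mki67, which encodes the proliferation marker Ki-67 (rn7 chr1:190496319-190522983, minus strand), ran from 2.04 to 3.21 FPKM in artery and from 0.934 to 3.62 in kidney, and the tissues overlapped. Its difference of 0.43 (SE 0.17, limma adjusted p = 0.0276) did not pass with median-of-ratios scaling (0.31, adjusted p = 0.0662), quantile normalization (0.17, adjusted p = 0.268) or without kidney wild-type 3 (0.31, adjusted p = 0.0959). It also missed the threshold without kidney deletion 3 (0.39), kidney deletion 4 (0.36) or artery deletion 3 (0.39). Its partner on mitotic chromosomes, Top2a, which untangles DNA, stood at -0.16 (limma adjusted p = 0.507).

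**Figure D2:**
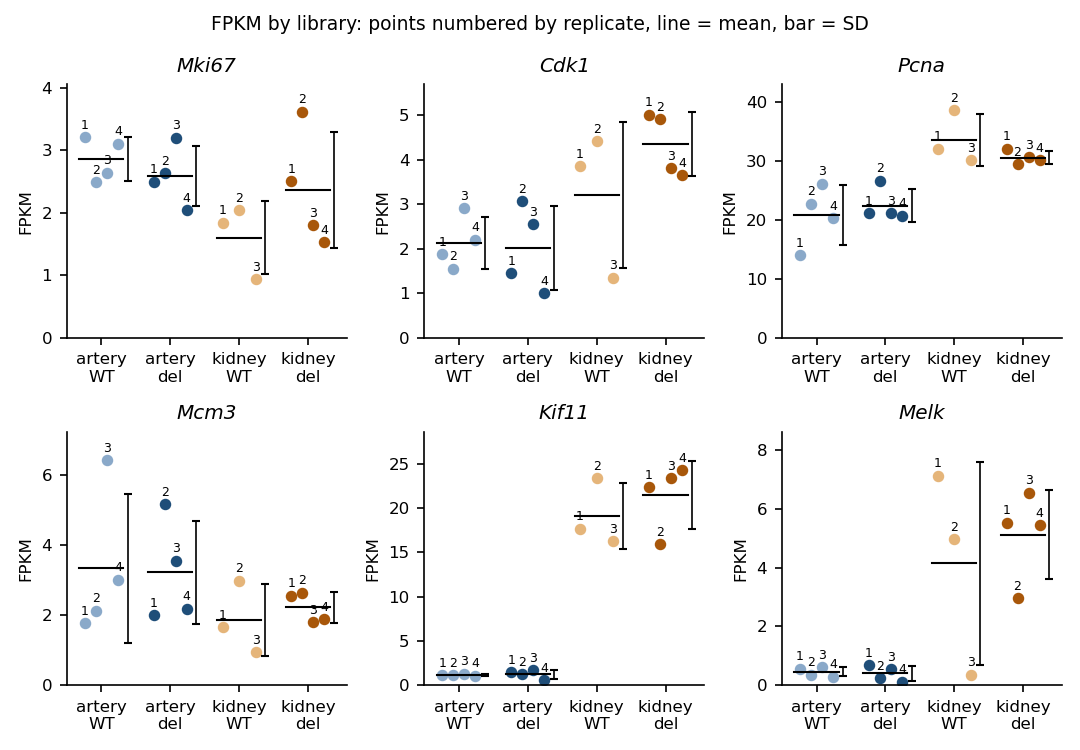
FPKM of 6 genes in every library, with points numbered by replicate, a line at the group mean and a bar for the SD (WT, wild-type; del, deletion). Kif11 and Melk stand higher in kidney than in artery, Melk except in kidney wild-type 3 at 0.350 FPKM; Mcm3 is highest in artery wild-type 3 and deletion 2.

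In artery none of the genes passed the test between deletion and wild-type. Limma called 0 of 33, as it called 0% of all 16470 genes, with 3 of 33 at an unadjusted p under 0.05 against 5.24% of all genes. Estimates were above 0 for 21 of 33, against 59.7% of all genes, and their median log2 difference was 0.0159, beside 0.0436 over all genes. Differences ran from -0.39 for Ube2c to 0.57 for Ccnb2. Ube2c was tested only through its wild-type values, with a mean of 0.852 FPKM against 0.495 in deletion arteries. Groups did not overlap for 1 of the 33 (Plk1, tested only through its deletion values), against 3.25% of all genes. These shares lay near those of all genes.

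Among the replication genes of artery, 0 of 10 passed and 7 estimates were above 0. Mcm2 stood at 2.73, 3.81, 3.65 and 3.24 FPKM (wild-type) and 3.42, 3.56, 3.69 and 3.38 (deletion), a log2 difference of 0.065 (SE 0.13, limma adjusted p = 0.943). Pcna stood at 14.0, 22.8, 26.1 and 20.3 FPKM (wild-type) and 21.1, 26.6, 21.2 and 20.7 (deletion), with a difference of 0.13 (SE 0.18, limma adjusted p = 0.923). Wild-type 1 was the lowest artery for both, and without it their differences were -0.017 and -0.040. Mcm6 had the smallest p of this group: 3.60, 4.27, 4.47 and 3.66 FPKM (wild-type) and 3.28, 3.87, 3.52 and 3.15 (deletion), a difference of -0.18 (SE 0.12, limma adjusted p = 0.893), with the lowest values in deletion rats and the groups overlapping. Mcm3 had the widest spread of the group, with 1.77, 2.13, 6.43 and 3.01 FPKM (wild-type) and 1.99, 5.17, 3.56 and 2.18 (deletion). Its 2 highest values fell in wild-type 3 and deletion 2, the arteries of high B cell marker sums; what part those cells have in the level of Mcm3 was not tested.

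Of the mitotic kinases and cyclins of artery, 0 of 8 passed and the 3 genes with an unadjusted p under 0.05 belonged to this group. Plk1, the Polo kinase that drives mitotic entry and cytokinesis, stood at 0.394, 0.474, 0.346 and 0.311 FPKM (wild-type) and 0.688, 0.879, 0.646 and 0.539 (deletion). Every deletion artery lay above every wild-type artery, at levels near 0.5 FPKM. The log2 difference was 0.43 (SE 0.17, limma unadjusted p = 0.033, adjusted p = 0.893). Ccnb2, cyclin B2, stood at 0.695, 0.589, 0.737 and 0.468 FPKM (wild-type) and 1.45, 0.698, 1.84 and 0.879 (deletion), a difference of 0.57 (SE 0.23, limma unadjusted p = 0.0366), with deletion 1 and 3 high and the groups overlapping. Aurkb, the kinase of the chromosomal passenger complex, stood at 0.675, 0.352, 0.817 and 0.302 and 0.857, 1.03, 1.24 and 0.692 FPKM, a difference of 0.51 (SE 0.22, limma unadjusted p = 0.0463). Cyclin B1, the relative of cyclin B2 that shares its kinase, had an estimate of the other sign: Ccnb1 stood at 0.856, 0.835, 1.5 and 0.950 FPKM (wild-type) and 0.487, 0.887, 0.970 and 0.518 (deletion), a difference of -0.34 (SE 0.21, limma adjusted p = 0.893). Cdk1, the kinase of both cyclins, stood at 1.87, 1.55, 2.91 and 2.2 FPKM (wild-type) and 1.457, 3.06, 2.55 and 1.0 (deletion), a difference of -0.12 (SE 0.29, limma adjusted p = 0.955), with deletion 4 the lowest artery; without it the difference was 0.097.

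The genes of the later steps of mitosis overlapped between the artery groups. Ube2c, the ubiquitin-conjugating enzyme of the anaphase-promoting complex, stood at 0.431, 0.360, 0.690 and 1.93 FPKM (wild-type) and 0.199, 0.989, 0.608 and 0.182 (deletion), and wild-type 4 was far above the rest. The log2 difference was -0.39 (SE 0.38, limma adjusted p = 0.908). Kif20a, a kinesin of the central spindle, stood at 2.2, 1.66, 1.57 and 1.49 FPKM (wild-type) and 2.31, 1.88, 2.16 and 1.92 (deletion), a difference of 0.21 (SE 0.15, limma adjusted p = 0.893). Mki67 was at 3.21, 2.50, 2.65 and 3.11 FPKM (wild-type) and 2.50, 2.64, 3.20 and 2.04 (deletion), a difference of -0.13 (SE 0.16, 95% confidence interval -0.47 to 0.22, limma adjusted p = 0.914). Top2a was at 2.85, 2.09, 3.39 and 2.01 and 2.68, 3.62, 4.15 and 1.45 FPKM, a difference of 0.12 (SE 0.28, limma adjusted p = 0.954). For both, deletion 4 was the lowest artery and deletion 3 among the highest. Of the 4 checkpoint genes and 9 spindle genes tested in artery, 0 passed.

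In kidney, too, none of the genes passed, but nearly all estimates were above 0. Limma called 0 of 35, as it called 0% of all 15444 genes, with 4 of 35 at an unadjusted p under 0.05 against 1.41% of all genes. Estimates were above 0 for 33 of 35, against 60.2% of all genes, with Pcna and Tyms as the exceptions, and their median log2 difference was 0.24, beside 0.0437 over all genes. Groups did not overlap for 4 of 35 (Ccnb2, Ttk, Nusap1 and Hmmr), all higher in deletion kidneys, against 2.55% of all genes. Of these, Ttk passed the filter only through its deletion values. Bub1b and Kif2c, among the 33 above 0, also had wild-type means under 0.5 FPKM (0.483 and 0.451). They too passed only through their deletion values. Without kidney wild-type 3 limma called 0 genes, 16 estimates were above and 19 below 0, the median was -0.010, and 1 gene, Hmmr, had an unadjusted p under 0.05. The estimates of 17 genes turned from above to below 0, among them Melk (0.73 to -0.25), Bub1 (0.13 to -0.31), Mcm5 (0.18 to -0.22) and Aurkb (0.19 to -0.19), genes picked after their values were seen. The same fit had 50.5% of all genes above 0 and a median of 0.00171.

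**Figure D3:**
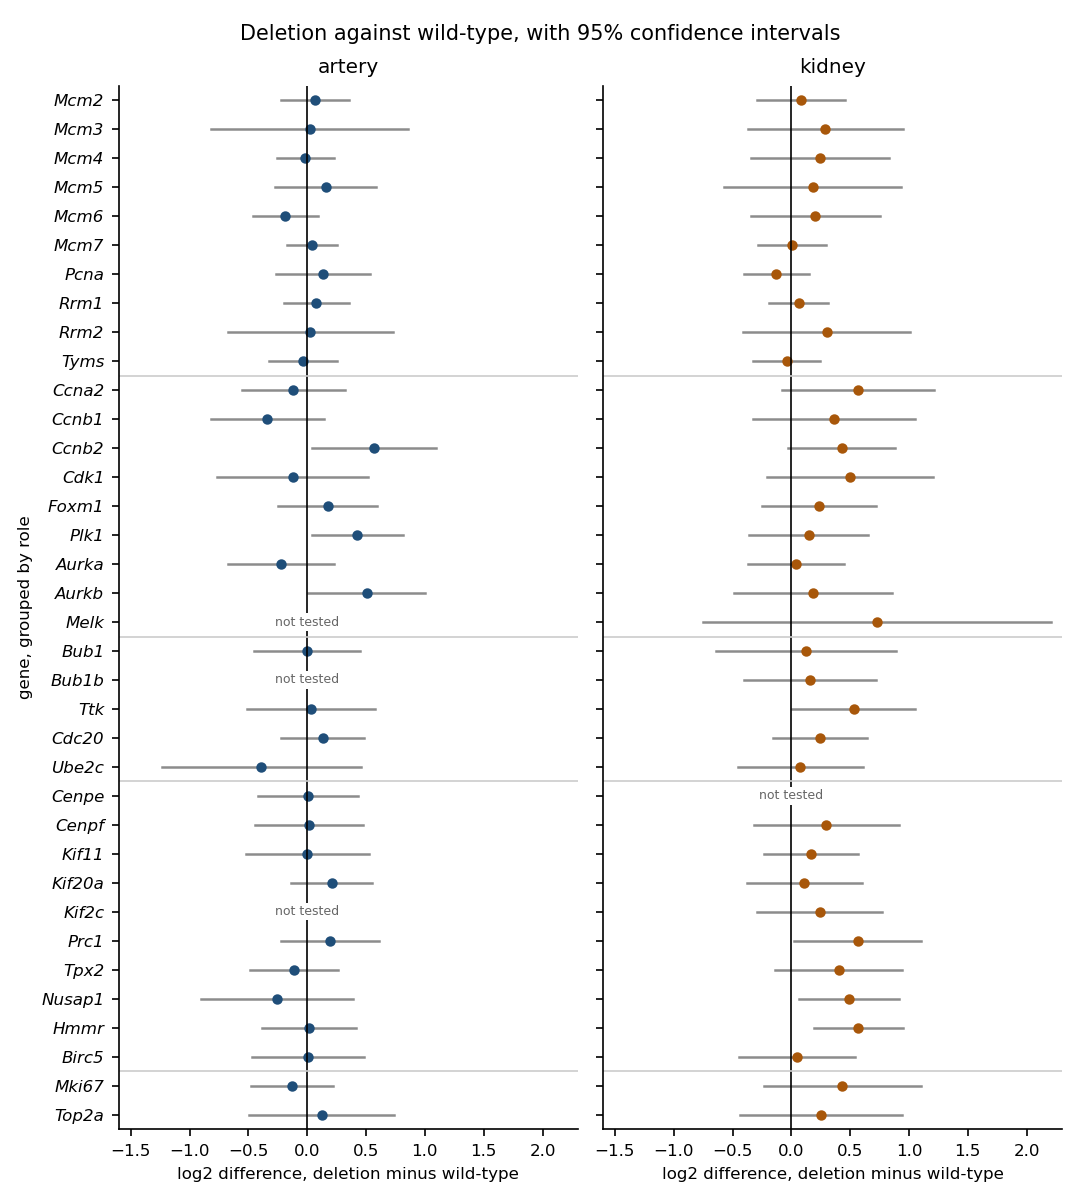
Log2 difference of deletion from wild-type for each gene in artery (left) and kidney (right), with 95% confidence intervals from limma. Artery estimates lie on both sides of 0, 21 of 33 above it, and kidney estimates lie above 0 for 33 of 35, with most intervals crossing 0.

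Hmmr had the smallest p of the list in kidney. It stood at 1.92, 2.33 and 1.74 FPKM (wild-type) and 3.13, 3.39, 3.30 and 2.97 (deletion), so every deletion kidney lay above every wild-type kidney. The log2 difference was 0.57 (SE 0.17, 95% confidence interval 0.19 to 0.95, limma unadjusted p = 0.00726, adjusted p = 0.999). Without kidney wild-type 3 it was 0.50 (SE 0.19, limma unadjusted p = 0.0261). In artery Hmmr stood at 1.21, 0.940, 1.11 and 0.902 FPKM (wild-type) and 0.946, 1.14, 1.41 and 0.771 (deletion), and its difference was 0.014 (SE 0.18). The difference between the tissues in the effect of the deletion was -0.56 for Hmmr (SE 0.22, limma unadjusted p = 0.0254, adjusted p = 0.943), and -0.48 without kidney wild-type 3. Hmmr was the only 1 of 33 with an unadjusted p under 0.05 for this difference, against 4.39% of all genes, and limma called 0 of 33 and 0% of all 16856 genes; estimates were above 0 for 8 of 33, against 49.6% of all genes.

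The other kidney genes without overlap were Nusap1, Ttk and Ccnb2. Nusap1, which bundles spindle microtubules, was at 0.973, 0.979 and 0.751 FPKM (wild-type) and 1.48, 1.75, 1.35 and 1.30 (deletion), a log2 difference of 0.49 (SE 0.19, limma adjusted p = 0.999). Ttk, the kinase that starts checkpoint signalling at kinetochores, was at 0.553, 0.560 and 0.189 and 0.998, 0.955, 0.646 and 0.728 FPKM, a difference of 0.53 (SE 0.23, limma adjusted p = 0.999). The mean of Ttk was 0.434 FPKM in wild-type and 0.832 in deletion kidneys, so it passed the 0.5 FPKM filter only through the deletion group. Ccnb2 was at 1.02, 1.078 and 0.729 and 1.29, 1.82, 1.39 and 1.26 FPKM, a difference of 0.43 (SE 0.20, limma adjusted p = 0.999). Kidney wild-type 3 was the lowest kidney for all 4 genes, and without it the differences of Nusap1, Ttk and Ccnb2 were 0.41, 0.33 and 0.32. Prc1, which cross-links the central spindle, stood at 0.57 (SE 0.24, limma unadjusted p = 0.0417) with overlapping groups, and at 0.33 without that library.

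The replication genes and the commonly used proliferation markers overlapped between the kidney groups. Mki67 was at 1.84, 2.04 and 0.934 FPKM (wild-type) and 2.50, 3.62, 1.81 and 1.53 (deletion), with deletion 2 the highest and wild-type 3 the lowest. Its log2 difference was 0.43 (SE 0.30, 95% confidence interval -0.23 to 1.10, limma adjusted p = 0.999), and 0.18 without wild-type 3. Top2a was at 3.21, 4.27 and 1.44 and 3.86, 4.43, 2.90 and 2.55 FPKM, a difference of 0.25 (SE 0.31, limma adjusted p = 0.999), which was -0.12 without that library. The sign of Ccnb1 turned as well: 1.2, 1.39 and 0.335 FPKM (wild-type) and 1.37, 1.76, 1.19 and 0.928 (deletion) gave 0.36 (SE 0.31, limma adjusted p = 0.999), and -0.00468 without wild-type 3. Cdk1, at 3.85, 4.41 and 1.35 and 5.01, 4.91, 3.80 and 3.65 FPKM, had a difference of 0.50 (SE 0.32, limma adjusted p = 0.999) and of 0.056 without it. Mcm2, at 4.74, 6.01 and 4.01 and 5.56, 5.65, 4.95 and 4.60 FPKM, had 0.081 (SE 0.17, limma adjusted p = 0.999) and -0.043. Pcna was the lowest estimate of the list: 32.1, 38.6 and 30.2 FPKM (wild-type) and 32.1, 29.4, 30.7 and 30.1 (deletion), a difference of -0.13 (SE 0.12, limma adjusted p = 0.999), and -0.20 without wild-type 3. All 4 deletion kidneys lay below wild-type 1 and 2 for Pcna, and the groups overlapped.

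Kidney wild-type 3 was the lowest of the 7 kidneys for 30 of the 36 genes, or 29 of the 35 tested, against 32.6% of all genes tested. The median gene of the list stood in it at 52.8% of the median of the other 6 kidneys, beside 89.9% over all genes. With median-of-ratios scaling, which removes part of a shift shared by all genes, it was lowest for 24 of the 35 tested, against 19.5% of all genes. Summed markers of some other cells were also lowest in it. Macrophages were at 117 FPKM against 140 to 213 in the other kidneys, and T cells at 6.29 against 8.42 to 12.4. Red cells were at 1729 against 3106 to 4384, with no marker of the 3 lists at 0 in it. Within these lists Cd2, Cd3d, Cd68, Cd163, C1qb, Slc4a1 and Klf1 were not lowest there. The smooth muscle sum was lowest as well, at 37.3 against 37.8 to 77.3, but of its markers only Tagln and Cnn1 were lowest there. The sums of the mesothelium list (87.5) and the intestinal epithelium list (251) were instead highest in it. Most of the intestinal sum was Epcam, at 223 FPKM, while Fabp2, Cdx1 and Cdx2 were at 0 there. Krt7 (49.7) and Gpm6a (31.7) made up most of the mesothelium sum, while Msln was at 0.0103 and Krt19, at 2.82, was the lowest of the kidneys. The sums of B cells, endothelial cells, mast cells and fibroblasts lay within the range of the other kidneys. Sox9, a marker of injured tubule, was at 0.916 FPKM against 6.07 to 11.7, while the sum of its list, 301 FPKM, lay within the range of the others. Their part in the levels of the cell cycle genes was not tested. The share differed by role: the median was 63.9% for the replication genes, 34.9% for the cyclins and kinases, 30.4% for the checkpoint genes, 57% for the spindle genes and 44.5% for Mki67 and Top2a. Melk was the furthest below, at 0.350 FPKM against 2.96 to 7.14 in the others, or 6.38% of their median. Aurkb followed at 23.8%, Bub1 at 24.3%, Ccnb1 at 26.0% and Ttk at 27.5%. Of the genes below the median of the others, the closest to it were Pcna at 96.2%, Mcm7 at 89.4%, Tyms at 86.3%, Aurka at 86.1% and Rrm1 at 85.3%. Birc5 went the other way: at 2.32 FPKM it was the highest kidney, above the 1.29 to 1.96 of the others, and the only gene of the list highest there (17.6% of all genes were), and Ube2c stood at 0.713, below only deletion 2.

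**Figure D4:**
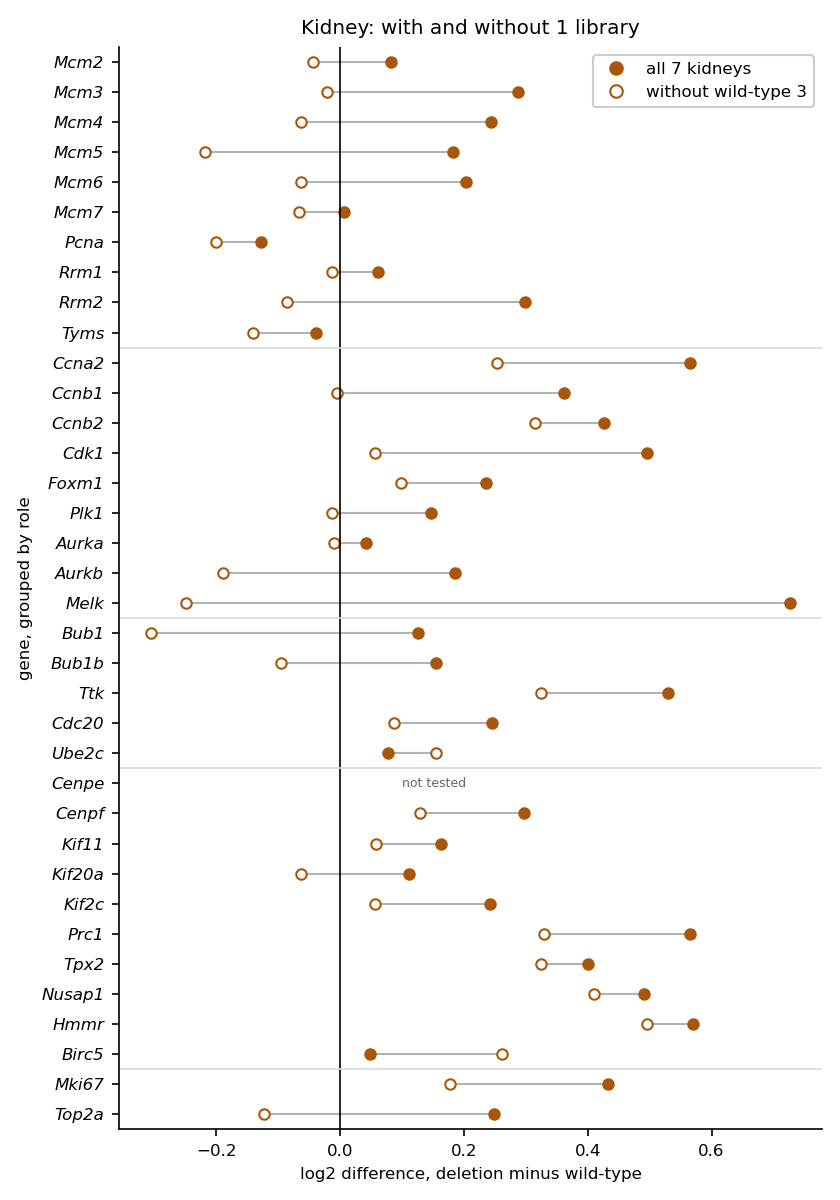
Log2 difference of deletion from wild-type in kidney for each gene with all 7 kidneys (filled) and without kidney wild-type 3 (open). The open points lie on both sides of 0, with 16 above and 19 below, where 33 of 35 filled points lie above 0; Birc5 and Ube2c are the genes whose open point lies to the right.

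At the other end, kidney deletion 2 was the highest kidney for 19 of the 36 genes, but it was also the highest for 37.7% of all genes tested; it was the lowest for 2, against 19.2% of all genes. With median-of-ratios scaling it was the highest for 10 and the lowest for 5 of the 36, against 20.5% and 35.5% of all genes. Its median log2 deviation from the kidney mean was 0.33 over the 36 genes, beside 0.13 over all genes, and 0.17 with that scaling. Cenpf, a kinetochore protein, was at 1.84 FPKM in it and at 0.479 to 0.928 in the other 6 kidneys, and Mki67 at 3.62 against 0.934 to 2.50. Deletion 1 had a median deviation of 0.21. These 2 kidneys also held the highest sums of 8 markers of injured tubule, 948 FPKM in deletion 1 and 706 in deletion 2, against 197 to 410 in the other 5; the wild-type kidneys ran from 197 to 410 and the deletion kidneys from 288 to 948. Spp1 made up most of the 2 sums, at 818 and 587 FPKM. Havcr1, the defining injury marker of that list, was at 14.8 and 9.49 FPKM in them and at 2.23 to 6.76 in the others. Not every marker followed. Vcam1 in deletion 1, at 12.1 FPKM, was below wild-type 1 (14.9) and 2 (14.5), and Krt20 was at 0 there. Sox9 in deletion 2, at 7.75, was below deletion 3 at 9.72. The part of tubule injury in the levels of the cell cycle genes was not tested. Melk, Kif11, Pcna and Rrm1 did not share the pattern, since deletion 2 was the lowest deletion kidney for each of them.

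In artery, deletion 4 stood low for many of the genes. It was the lowest artery for 18 of the 36 genes, against 7.59% of all genes tested, and the highest for 0 of them, against 14.3%. Its median log2 deviation from the artery mean was -0.30 over the list, beside 0.042 over all genes. With median-of-ratios scaling it was again the lowest for 18, against 11.1% of all genes. This library also held the most Rn7sl1 of the arteries, the RNA of the signal recognition particle, at 12.7% of its FPKM against 1.89% to 8.03%. Among kidneys deletion 2, which stood high for the list, held the most, at 22.0% against 8.23% to 15.1%. Haemoglobin transcripts were at 12% in artery deletion 4, below only wild-type 4. The part of Rn7sl1 and haemoglobin in the shift of artery deletion 4 was not tested. Kif11 was at 0.533 FPKM in it and at 1.07 to 1.67 in the other arteries, Cdk1 at 1.0 against 1.457 to 3.06, and Top2a at 1.45 against 2.01 to 4.15. Artery deletion 3 was the highest for 13 of the 36, against 13.2% of all genes, and the lowest for 0, against 8.65%, with a median deviation of 0.21. Both are deletion arteries, so the group holds the library with the lowest and that with the highest median of the list.

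**Figure D5:**
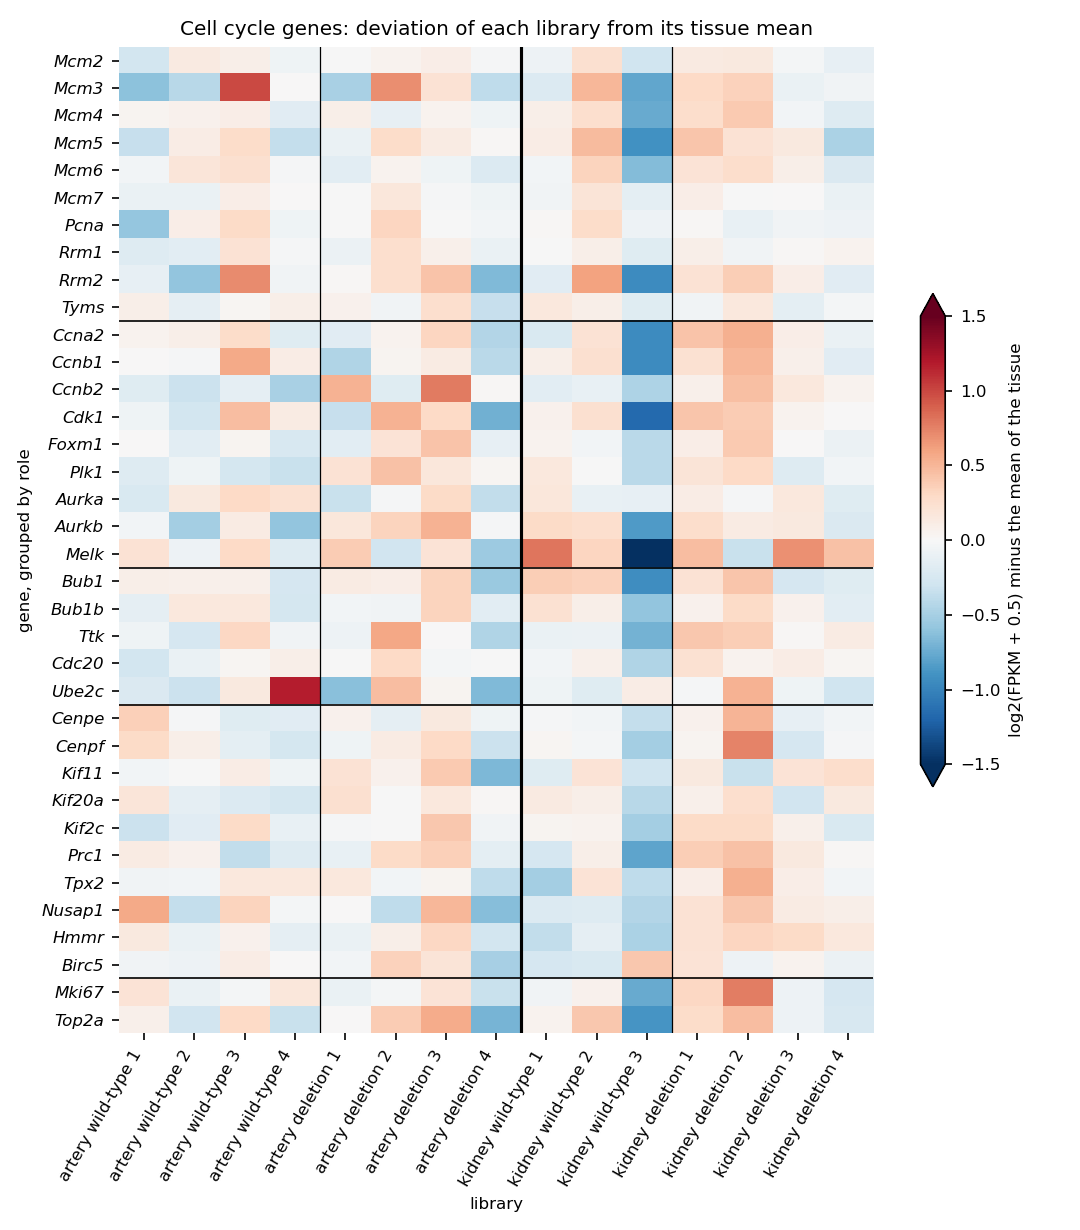
Log2(FPKM + 0.5) of each gene in each library minus the mean of its tissue, blue below and red above, with colours saturating at 1.5 in either direction; thin lines part genotypes and roles. Kidney wild-type 3 is blue in most rows (lowest for 30 of 36 genes), and artery deletion 4 in many (lowest for 18), while Birc5 in kidney wild-type 3 and Ube2c in artery wild-type 4 are red.

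Other genes of the cell cycle were measured as 5 further lists, of regulators and of further replication and mitotic genes. None of their genes passed between genotypes: limma called 0 of 9 G1 cyclins and kinases, 0 of 6 tested inhibitors, 0 of 16 genes of the RB, E2F and DREAM complexes, 0 of 27 other replication genes and 0 of 32 other mitotic genes in artery, with 4 at an unadjusted p under 0.05. In kidney it called 0 of 9, 5, 16, 28 and 31, with 2 at an unadjusted p under 0.05. The medians of the lists in artery ran from -0.0647 for the other mitotic genes to 0.15 for the inhibitors, and in kidney from 0.0356 for the G1 genes to 0.22 for the other mitotic genes, beside 0.0436 and 0.0437 over all genes. In kidney 27 of the 31 other mitotic genes had estimates above 0, against 60.2% of all genes. The fit without kidney wild-type 3 had 22 of 33 above 0, against 50.5% of all genes, limma called 0 genes of the 5 lists, and the medians ran from -0.025 for the other replication genes to 0.070 for the G1 genes.

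The genes of these lists with the smallest p did not pass either. In artery, Stmn1, which destabilises microtubules, stood at 0.33 (SE 0.09, limma unadjusted p = 0.00506) and Smc4, a condensin subunit, at -0.38. Ccne1, the cyclin that starts S phase, was at 0.56 and Cdk4 at 0.15; the inhibitors Cdkn2c and Cdkn1b were at 0.32 and -0.16. E2f1, the activator of replication genes, was at 0.34 and Lin52, a DREAM subunit, at 0.22, while Rfc3, a subunit of the clamp loader, was at 0.35 and Orc4, of the origin recognition complex, at -0.23. In kidney, Cks2, a partner of CDK1, stood at 0.63 (SE 0.25, limma unadjusted p = 0.0299) and Ect2, an activator of cytokinesis, at 0.52. Ccne2 was at 0.51, Ccnd3 at -0.24, the p21 gene Cdkn1a at 0.28 and Cdkn1b at 0.13. E2f1 was at 0.53, E2f5 at 0.31, Gins3, a helicase subunit, at 0.38 and Orc4 at 0.31. When kidney wild-type 3 was left out, the estimates of Cks2, Ect2, E2f1, Orc4, Cdkn1a and Ccnd3 moved closer to 0, to 0.44, 0.19, 0.16, 0.15, 0.056 and -0.12, while Cdkn1b was at 0.19, Ccne2 at 0.42, E2f5 at 0.31 and Gins3 at 0.41. Estimates for E2f1 were above 0 in both tissues and those for Orc4 and Cdkn1b were of opposite sign; the difference between tissues was not called for any gene.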

How the data were processed

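RNA-seq of total RNA was analysed in 15 libraries, 8 of mesentery artery and 7 of kidney cortex, grouped by genotype as titled. The authors deposited FPKM values per gene, and how FPKM was computed is not stated. Per the submitters' processing notes the build was rn7 and the tools included HISAT2 2.2.1, Trim Galore 0.6.2 and DESeq2 1.46.0, with no role given. A deposited coverage column, made by the authors for no named sample, was not used. Read depth is unknown, since low values showed no steps of whole reads. The 6337 of 40694 rows without an identifier were left out. Genes averaging 0.5 FPKM or more over the libraries compared were tested on log2(FPKM + 0.5) with limma 3.58.1 in R 4.3.3 (lmFit, eBayes with trend and robust moderation), two-sided, with Benjamini-Hochberg adjustment over all genes tested. The fits compared genotypes in each tissue, the genotype effects of the tissues (interaction), and artery with kidney. The scripts were tested on simulated data. The gene list, the pathway and marker lists and the tests were chosen with earlier results of these data known. Values in every library are given for Mki67, Top2a, Cdk1, Ccnb1, Mcm2 and Pcna, for each role's gene of smallest p per tissue, and for a few more chosen after their values were seen (Ccnb2 and Aurkb in artery, Mcm3, Nusap1, Melk and Kif11). Pathway genes named are the 2 with the smallest p of each list and tissue, and the tissue comparison names the 3 largest called differences each way; further called genes there are given by estimate. One result of the pathway lists is not reported here. Alternatives changed the pseudocount (0.1 or 1), the filter (none, or 1 FPKM), the scaling (median-of-ratios or quantile), the moderation (array weights, or not robust), added the replicate number as a block, or left out a library. Leaving out both arteries of high B cell markers was chosen after seeing the data. Promoters came from RefSeq on GRCr8, and Mcm4, Rrm2, Ccna2, Foxm1, Aurkb, Ube2c and Tpx2 had no entry. Plots used matplotlib 3.10.9 (Python 3.11.15).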

Additional observations from a re-analysis of the deposited data

Results flagged for a closer look

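In each group of 4 libraries, the highest and the lowest value of each gene was compared with the others by its gap relative to the range of the group. Over 108 such groups (36 genes in 3 groups), 4 stood apart by Dixon's 95% critical value, and chance alone gives about 1 in 20. Bub1 was at 2.28 FPKM in artery wild-type 4, against 2.98 to 3.01 in the other wild-type arteries. Pcna was at 26.6 FPKM in artery deletion 2, against 20.7 to 21.2 in the other deletion arteries. Cdc20 was at 2.03 FPKM in the same library, against 1.52 to 1.55. Kif2c was at 0.644 FPKM in artery deletion 3, against 0.335 to 0.361.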

How the results depend on the processing

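The counts of cell cycle genes called between genotypes were 0 under every alternative in artery, in kidney and for the difference between tissues. With array weights, kidney called 282 of all genes and 3 of the pathway lists (E2f5 at 0.56, limma adjusted p = 0.0413), the median of the list was -0.027, and Top2a (-0.31), Ccnb1 (-0.12), Mcm2 (-0.19) and E2f1 (-0.20) changed sign. Estimation of these weights did not converge where kidneys were included, and in the kidney fit wild-type 2 had a weight of 18.2, against 0.268 to 1.86 in the other 6. Leaving out 1 library at a time gave medians of -0.010 (without wild-type 3) to 0.37 in kidney and of -0.054 to 0.13 in artery. Without kidney wild-type 3, 17 of 35 kidney estimates turned from above to below 0; among the genes recomputed under each alternative, those that did ran from -0.12 to 0.52 for Top2a, from -0.00468 to 0.58 for Ccnb1 and from -0.043 to 0.22 for Mcm2. In artery they ran from -0.017 to 0.12 for Mcm2 and from -0.040 to 0.25 for Pcna (both lowest without wild-type 1), from -0.043 (without deletion 3) to 0.38 for Top2a, and from -0.32 to 0.097 (without deletion 4; 0.00900 without wild-type 3) for Cdk1. With 1 library left out, 0 to 1 of all genes were called in artery and 0 to 1 in kidney, and a pseudocount of 0.1 called 1 in artery. Between tissues, genes of the list called were 25 with quantile normalization and 25 with array weights, against 15 to 19 with 1 library left out. No depth is known, so detection limits were not set. The replicate numbers were not taken as pairing the libraries. Same-numbered wild-type and deletion libraries deviated with correlations of 0.32, -0.34, 0.24 and 0.30 in artery and of 0.08, -0.01 and 0.27 in kidney. All of these lay within the range of differently numbered libraries, -0.447 to 0.446 in artery and -0.296 to 0.342 in kidney. With the replicate number as a block, 0 cell cycle genes were called for genotype in artery, 0 in kidney and 0 for the interaction, and 16 between tissues; the medians were 0.0159, 0.34 and -0.19. Without both arteries of high B cell markers, chosen after seeing the data, 0 were called in artery (median 0.034) and 16 between tissues. Mki67 between tissues changed its call, as given with its values. The causes of these shifts were not tested.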

Other observations

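Several regulators of entry into the cycle also differed between the tissues. Of the D-type cyclins, which couple growth signals to CDK4 and CDK6, Ccnd2 was higher in artery by 3.16 on the log2 scale (SE 0.13), with means of 67.4 FPKM in wild-type arteries and 7.52 in wild-type kidneys, while Ccnd1 was lower by the fit, at -1.65 (SE 0.15), with 26.8 and 88.8 FPKM. Stmn1 was at -2.08 and Tubb5, a tubulin, at 1.40. The inhibitors Cdkn2c and Cdkn2b were higher in artery, by 0.91 and 1.21. All of these were called by limma. Over the 5 lists, 4 of 9 G1 genes were called higher in artery and 3 lower, 3 of 6 inhibitors higher and 1 lower, 5 of 16 RB, E2F and DREAM genes higher and 4 lower, 6 of 28 other replication genes higher and 8 lower, and 7 of 32 other mitotic genes higher and 13 lower, beside 77% of all genes called.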
